A study of Mus musculus with 9 samples.

Results

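The genes of 2 ring-shaped protein complexes that shape chromosomes, cohesin and condensin, were followed together with Top2a, the gene of topoisomerase II alpha, in a mouse neuroblastoma line with raised or lowered Tcof1. The members were Smc1a, Smc3, Rad21 and Stag1 of cohesin, Smc2, Smc4, Ncapd2, Ncapg and Ncaph of condensin, and Top2a. Every probe set whose platform annotation gave exactly 1 gene symbol, and that symbol was a member, was taken, which gave 23 of 22690 probe sets and all 10 genes, of 12393 genes with such a probe set. Each array measured total RNA of N1E-115, a line from the mouse C1300 neuroblastoma. The groups were cells overexpressing mouse Tcof1, cells with Tcof1 knocked down and wildtype cells, with 3 arrays each, lettered A, B and C. All groups share the same line. The labels do not say how Tcof1 was raised or lowered, whether a group is 1 clone, or what the letters stand for. The p-values therefore measure differences relative to the scatter of arrays within a group, which may be technical scatter only.

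Both complexes are built on a pair of SMC (structural maintenance of chromosomes) ATPases closed by a kleisin subunit. Cohesin holds sister chromatids together from S phase to anaphase and folds interphase chromatin into loops, so its core is needed through the whole cell cycle and in cells that no longer divide. Condensin compacts chromosomes for mitosis, and topoisomerase II alpha passes one DNA duplex through another so that compacted sister chromatids can separate. In mammalian cells Top2a and several condensin I genes are known to peak in S phase to mitosis. Treacle, the nucleolar product of Tcof1, promotes transcription of ribosomal RNA genes.

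Values are linear array intensities, and fold changes are log2 differences ± SE of log2(intensity + 16) from a limma fit over all 22626 non-control probe sets. A change is called where the p-value adjusted over all of them is under 0.05. Intensities of different probe sets cannot be set against each other as levels. The array medians lay between 164.1 and 185.95, and correlations of arrays within a group between 0.972 and 0.978. Tcof1 itself read 385.5, 232.4 and 263.6 in overexpressing arrays A, B and C, 134.8, 112.1 and 133 in knockdown arrays and 143.1, 156.3 and 149.8 in wildtype arrays on one of its 3 probe sets. That probe set is not the brightest of Tcof1. Tcof1 was called higher in overexpressing cells there, at 0.87 ± 0.21 (adjusted p = 0.0241), and on 0 of the other 2. The brightest was at 0.39 ± 0.17 (adjusted p = 0.187) and the remaining one at 0.63 ± 0.20 (adjusted p = 0.0786). In knockdown over wildtype Tcof1 was called on 0 of 3. The probe set shown was at -0.22 ± 0.21 (adjusted p = 0.744). The brightest had the other sign, at 0.06 ± 0.17 (adjusted p = 0.934), and the remaining one was at -0.40 ± 0.20 (adjusted p = 0.51). These arrays therefore do not establish the knockdown. Of 14 neuroblastoma and sympathoadrenal markers measured, 13 lay above the median probe set in each group (the transcription factor Phox2a averaged 3430, 3403 and 4163 units in overexpressing, knockdown and wildtype cells). In overexpressing over wildtype cells 4 of the 14 were called lower and 1 higher, where 6.22% and 5.04% of all genes were. Eno2 fell to a fold of 0.28, Ache to 0.38, Chga to 0.59 and Stmn2 to 0.77, and Dbh rose to 1.52. In knockdown over wildtype cells 0 of the 14 were called, where 0.00807% of all genes were. Their summed intensity was 42105.8 to 46412.8 in overexpressing, 53301.4 to 57908.4 in knockdown and 51246.5 to 55082.1 in wildtype arrays. The 7 fibroblast markers summed to 446.2 to 602.9, 592.3 to 789.6 and 473.9 to 621.2 in overexpressing, knockdown and wildtype arrays, and the 3 Schwann cell and glia markers to 215.2 to 388.6, 278.9 to 396.5 and 335.2 to 352.4. The 4 blood markers summed to 181.1 to 268.7, 200.3 to 340 and 299.6 to 368.4, with 0 of 4 above the median probe set in any group, and Ptprc, which defines white blood cells, averaged 17.63, 16.87 and 22.67. The part of these shifts in the members' values was not tested.

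The wildtype arrays differed among themselves in these genes. By the brightest probe set of each gene, wildtype array A was the lowest of the 3 wildtype arrays for 10 of 10 members, and wildtype array C the highest for 9 of 10. Some dimmer probe sets had array A as the highest, among them 1416161_at and 1455938_x_at of Rad21 and 1427276_at of Smc4. Over the whole table, the mean correlation of array A with its group was 0.974, against 0.977 and 0.976 for wildtype arrays B and C. The median over all genes, relative to their wildtype means, was -0.01, 0.03 and -0.02 on wildtype arrays A, B and C. These values cannot show how many other genes were lowest on array A or highest on array C, which was not counted.

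In cells overexpressing Tcof1, 4 of the 5 condensin genes and Top2a were higher than in wildtype cells, while 3 of the 4 cohesin genes lay near their wildtype level. By brightest probe sets, 6 of the 10 genes rose and 0 fell: Smc2, Smc4, Ncapg, Ncaph, Top2a and, of cohesin, Stag1. Over all 12393 genes, 5.04% were called higher and 6.22% lower, but the members were chosen with earlier results of these data known. The median log2 fold change was 0.69 over the 10 members, 0.72 over the 5 condensin genes, 0.08 over the 4 cohesin genes and -0.03 over all genes. Of the 23 probe sets, 8 were called higher and 0 lower, where 4.52% of all probe sets were called higher and 5.07% lower. The count of genes depends on single arrays: it was 3 without overexpressing array A, 2 without overexpressing array B, and 3 without wildtype array A or B. Calls in either direction over all probe sets fell too, from 9.59% to 5.29%, 5.69%, 5.95% and 4.82% in these fits. The median over the 10 members was 0.69, 0.57, 0.57 and 0.67 in them. In overexpressing over wildtype cells, 7 of the 10 genes had groups that did not overlap, against 13.8% of all genes. In RNA of whole cultures, a larger share of cells that express a gene and more RNA of it per cell cannot be told apart.

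**Figure D1:**
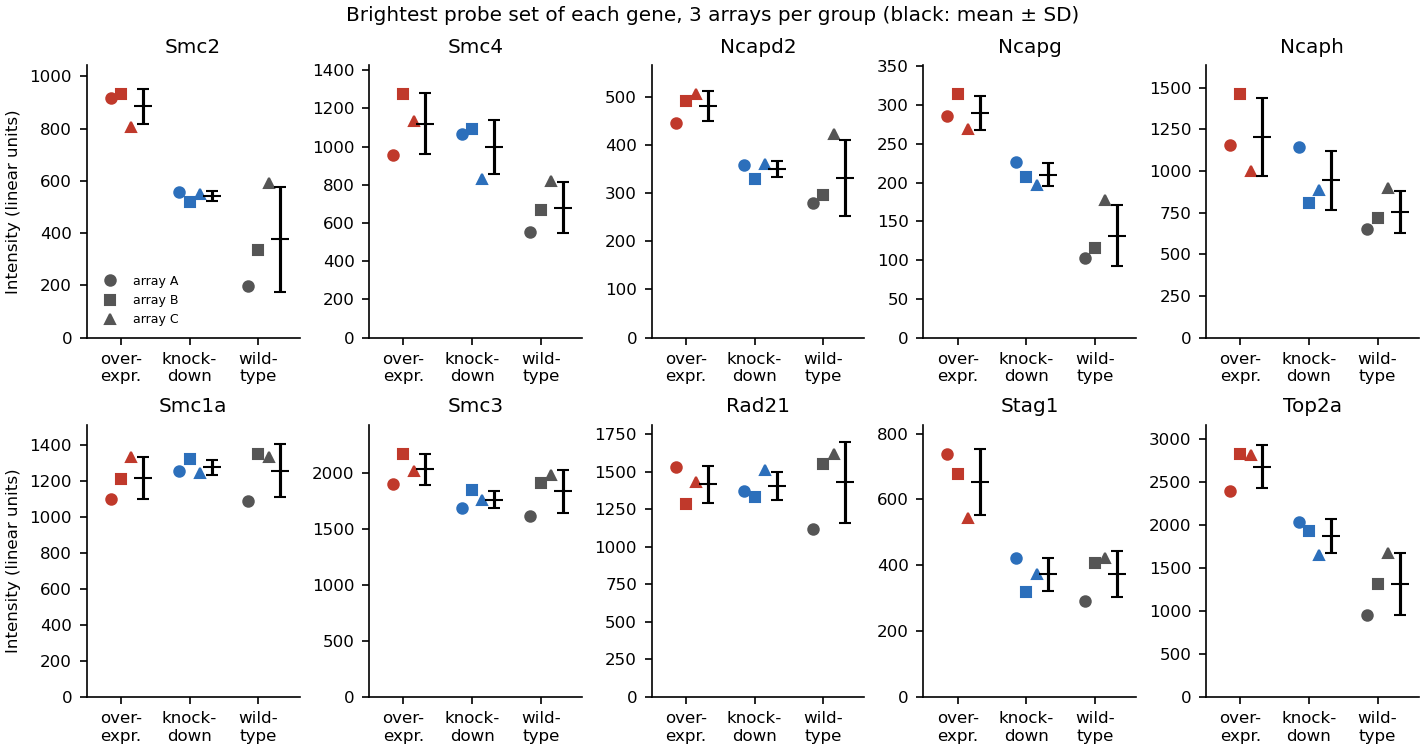
Linear intensity (y axis, from 0) of the brightest probe set of each gene in overexpressing, knockdown and wildtype cells, with 1 point per array, the letter as the symbol, and black bars for the mean ± SD of 3 arrays. The 3 overexpressing arrays lie above all wildtype arrays for the 5 condensin genes, Stag1 and Top2a, and overlap them for Smc1a, Smc3 and Rad21.

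Smc2 and Smc4 encode the ATPase arms of condensin. Smc2 had 1 probe set, which read 916.6, 931.2 and 808.3 units in overexpressing arrays A, B and C, against 199.1, 334.1 and 593.3 in wildtype arrays A, B and C. The groups did not overlap, and the wildtype arrays were spread widely while the overexpressing arrays were close together. Smc2 rose by 1.33 ± 0.28 on the log2 scale, a fold of 2.51 (adjusted p = 0.015). Without wildtype array A the difference was 0.96 (adjusted p = 0.0218), and without wildtype array C it was 1.71. Leaving out overexpressing array A, overexpressing array B or wildtype array B ended the call, with adjusted p of 0.054, 0.054 and 0.0566 and differences of 1.30, 1.29 and 1.31.

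Smc4 was measured by 3 probe sets, of which 2 rose. The brightest, 1452197_at, read 955.1, 1273.5 and 1134.2 in overexpressing arrays A, B and C, against 553.6, 669.8 and 818.1 in wildtype arrays. Every overexpressing array was above every wildtype array, by 0.72 ± 0.16 (adjusted p = 0.0199). The second, 1427275_at, read 434.2, 458.8 and 545.5 in overexpressing arrays, against 282.7, 192.7 and 296.1 in wildtype arrays, a rise of 0.88 ± 0.24 (adjusted p = 0.0469). The third, 1427276_at, had 277.5, 256.2 and 141.6 in overexpressing arrays, against 148.5, 146.7 and 141.8 in wildtype arrays, at 0.53 ± 0.31 (adjusted p = 0.374). Its overexpressing array C lay at the wildtype values. The call on the brightest probe set was lost without overexpressing array B or C or wildtype array A or B, with differences of 0.62, 0.70, 0.58 and 0.71 (adjusted p = 0.0791, 0.0597, 0.067 and 0.0683), and without the mean-variance trend in the fit (adjusted p = 0.0614). The call on the second was lost in 6 of 9 such fits, without any overexpressing array, knockdown array A, or wildtype array A or B, with adjusted p up to 0.169, without the trend (adjusted p = 0.0916) and with 64 in place of 16 units added before the log (adjusted p = 0.0537).

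Ncapg, Ncapd2 and Ncaph are the non-SMC subunits of condensin I: Ncaph is the kleisin that closes the ring, and Ncapg and Ncapd2 are HEAT-repeat subunits bound to it. Ncapg read 286, 313.8 and 269.8 in overexpressing arrays A, B and C, against 102.4, 115.5 and 176.9 in wildtype arrays, on probe set 1429171_a_at. The groups were well apart, with a rise of 1.08 ± 0.20, a fold of 2.12 (adjusted p = 0.00819). This call held with each of the 9 arrays left out in turn, with differences from 0.94 without wildtype array A to 1.29 without wildtype array C. A second Ncapg probe set, 1429172_a_at, read 117.7, 117.2 and 171 in overexpressing arrays, against 100.7, 164.6 and 173.5 in wildtype arrays. It did not follow the first, at -0.09 ± 0.24 (95% interval -0.62 to 0.44).

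Ncaph rose on both of its probe sets. The brighter, 1436707_x_at, of a type whose probes can match other transcripts, read 1156.4, 1458.9 and 997.7 in overexpressing arrays, against 653.1, 718.6 and 896.1 in wildtype arrays, at 0.66 ± 0.17 (adjusted p = 0.0379). The other, 1423920_at, read 736.8, 941.6 and 658 in overexpressing arrays, against 355, 514.6 and 562.9 in wildtype arrays, at 0.70 ± 0.18 (adjusted p = 0.0312). Neither pair of groups overlapped, and overexpressing array B was the highest on both probe sets. Without overexpressing array B the differences were 0.51 (adjusted p = 0.133) and 0.56 (adjusted p = 0.114), and without wildtype array A they were 0.56 (adjusted p = 0.125) and 0.50 (adjusted p = 0.0826). Both calls were also lost without either overexpressing array A or wildtype array B, and that of 1436707_x_at without knockdown array C (adjusted p = 0.0558). Without the mean-variance trend in the fit neither probe set passed (adjusted p = 0.0955 and 0.0765).

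Ncapd2 did not pass, although its groups did not overlap. It read 446.6, 491.8 and 506 in overexpressing arrays A, B and C, against 279.2, 295.7 and 423.6 in wildtype arrays, at 0.53 ± 0.16 (adjusted p = 0.0601). Wildtype array C was far closer to the overexpressing arrays than A and B were, and without it the difference was 0.71 (adjusted p = 0.00874). Ncapd2 passed in only this 1 of the 9 fits with an array left out. Without wildtype array A the difference was 0.425 (adjusted p = 0.18). Without wildtype array C 10.6% of all probe sets passed, against 9.59% with all arrays.

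Top2a had the smallest p-value of the 23 probe sets. Its probe set 1454694_a_at read 2395.9, 2831 and 2813.8 in overexpressing arrays A, B and C, against 956.5, 1307.5 and 1671.2 in wildtype arrays. The lowest overexpressing array was well above the highest wildtype array. Top2a rose by 1.05 ± 0.17 on the log2 scale, a fold of 2.08 (adjusted p = 0.0041), and the call held with each of the 9 arrays left out in turn, at 0.85 when wildtype array A was left out and 1.25 when C was. A second Top2a probe set, 1427724_at, read 3.6 to 6.1 in overexpressing and 4 to 7.6 in wildtype arrays, under the 16 units added before the log, and carries no information on the gene.

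The cohesin ring genes stayed near wildtype values. Smc3, an ATPase arm of cohesin, read 1903.3, 2174.6 and 2023.4 on its brightest probe set in overexpressing arrays, against 1619, 1913.1 and 1983.2 in wildtype arrays. The difference was 0.15 ± 0.10 with a 95% interval of -0.07 to 0.36 (adjusted p = 0.431), and the dimmer probe set was at -0.16 ± 0.18. Smc1a, the other ATPase arm, read 1101.6, 1212.4 and 1333.6 in overexpressing arrays, against 1086.7, 1352.8 and 1334.3 in wildtype arrays. Its brightest probe set was at -0.05 ± 0.11 (95% interval -0.29 to 0.19), and the other 2 at 0.00 ± 0.14 and -0.14 ± 0.15. These intervals leave room for changes of about that size, and exclude a rise as large as that of Top2a.

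Rad21, the kleisin of mitotic cohesin, had 3 probe sets, and the brighter 2 ordered the wildtype arrays differently. The brightest, 1416162_at, read 1535.2, 1289.3 and 1430.6 in overexpressing arrays, against 1119.8, 1549.7 and 1621.9 in wildtype arrays, a difference of 0.00 ± 0.14 (95% interval -0.30 to 0.30). The second, 1416161_at, read 1680, 1477.2 and 1233.8 in overexpressing arrays, against 2101.5, 989.7 and 1101 in wildtype arrays. Wildtype array A was thus the lowest wildtype array on the first and by far the highest on the second. The second stood at 0.14 ± 0.24, or 0.47 without that array (adjusted p = 0.0966), and the third at -0.01 ± 0.34. The third, 1455938_x_at, read 236.1, 162.5 and 166.6 in wildtype arrays A, B and C, so array A was the highest there too.

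Stag1, a subunit that binds the ring and helps to place cohesin on chromatin, was the exception within cohesin. Its brightest probe set, 1431921_a_at, read 738.9, 676.2 and 543.5 in overexpressing arrays A, B and C, against 291.8, 405.1 and 421.2 in wildtype arrays. The groups did not overlap, and Stag1 rose by 0.79 ± 0.17, a fold of 1.73 (adjusted p = 0.0173). The other 3 probe sets had the same sign without passing, at 0.71 ± 0.26, 0.36 ± 0.25 and 0.95 ± 0.46 (adjusted p = 0.125, 0.452 and 0.249), and all 3 were dim, with means of 58.3 to 115.3 over the 9 arrays. The call was lost without overexpressing array A or B or wildtype array A, with differences of 0.70, 0.76 and 0.63 (adjusted p = 0.0735, 0.0627 and 0.0539).

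**Figure D2:**
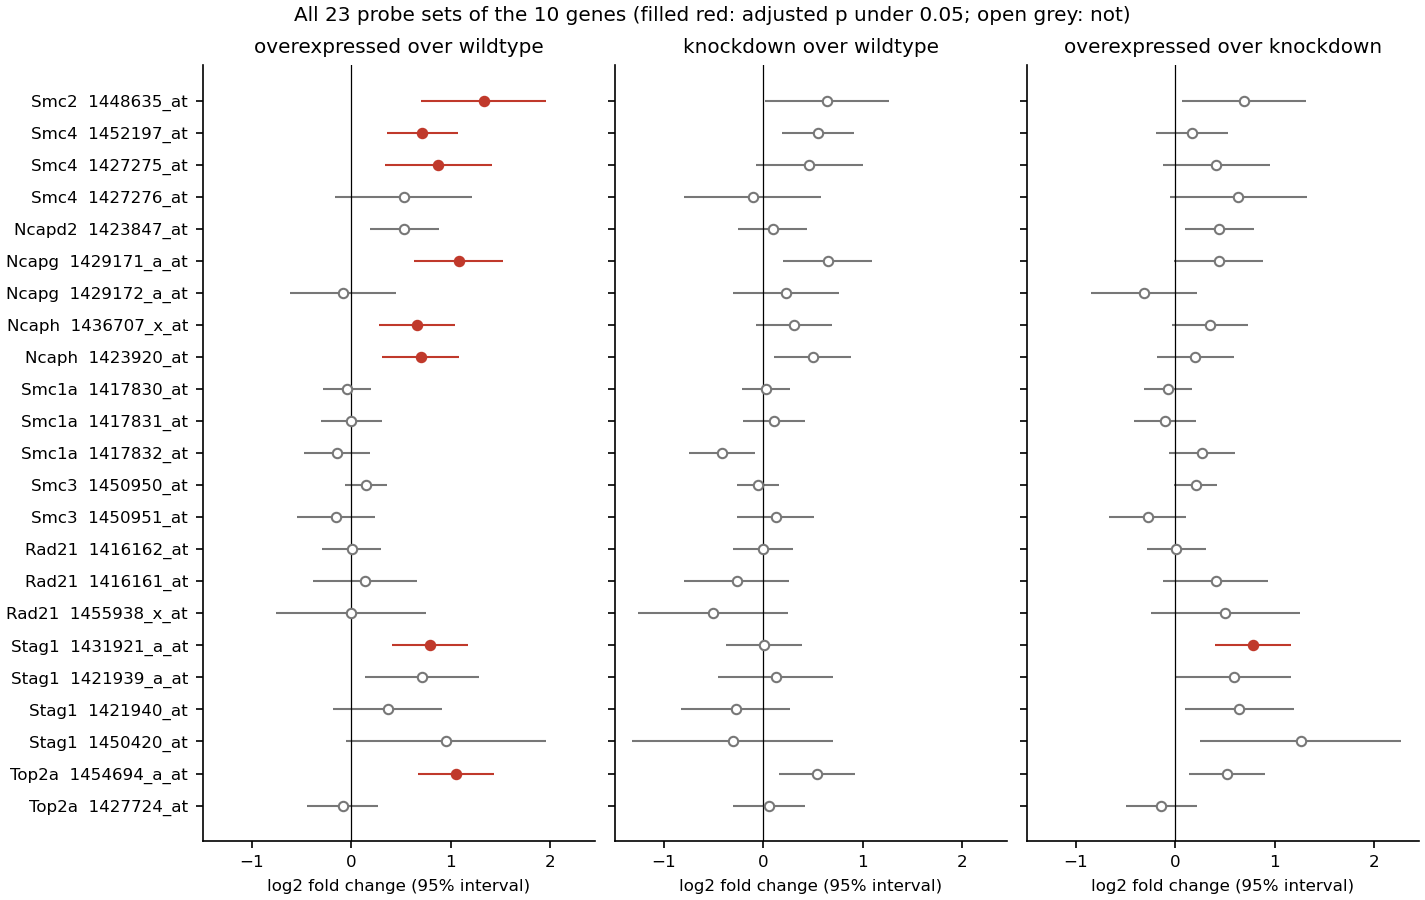
Log2 fold change (x axis) with its 95% interval for all 23 probe sets in each of the 3 comparisons (left, overexpressed over wildtype, middle, knockdown over wildtype, right, overexpressed over knockdown), with filled red points where the adjusted p is under 0.05. There are 8 filled points in the left panel, 0 in the middle and 1, a Stag1 probe set, on the right.

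In knockdown cells, 0 of the 23 probe sets passed against wildtype in limma, where 0.0133% of all probe sets passed in either direction. At an unadjusted p under 0.05, 5 were higher and 1 was lower, against 5.94% and 4.94% of all probe sets. This comparison and the one before share the 3 wildtype arrays. The median over the 10 members was 0.20, over the 5 condensin genes 0.55, over the 4 cohesin genes -0.001 and over all genes 0.04. Without wildtype array A the medians over the 10 members and the 5 condensin genes were 0.10 and 0.27, and without wildtype array C 0.36 and 0.69.

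Smc4 read 1068.7, 1089.8 and 832.4 in knockdown arrays A, B and C, against 553.6, 669.8 and 818.1 in wildtype arrays, at 0.55 ± 0.16 (adjusted p = 0.276). The groups did not overlap, but knockdown array C and wildtype array C were nearly equal. Ncapg read 226.2, 207.3 and 196.5 in knockdown arrays, also above every wildtype array, at 0.65 ± 0.20 (adjusted p = 0.298). Top2a read 2033.9, 1934 and 1646.3 in knockdown arrays, and the last of these fell below wildtype array C. Its difference was 0.54 ± 0.17, with a 95% interval of 0.16 to 0.92 (adjusted p = 0.303), and 0.33 without wildtype array A (adjusted p = 0.57).

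Smc2 was even in knockdown arrays, at 557.9, 518.9 and 549.1, all under wildtype array C and above wildtype arrays A and B. The difference was 0.64 ± 0.28 (95% interval 0.01 to 1.27, adjusted p = 0.448), or 0.27 without wildtype array A (adjusted p = 0.788) and 1.02 without C (adjusted p = 0.0508), so its size depends on which wildtype arrays are kept. Ncaph was at 0.31 ± 0.17 and 0.50 ± 0.18 on its 2 probe sets, the second at 0.30 without wildtype array A, and Ncapd2 at 0.09 ± 0.16. Smc1a, Smc3, Rad21 and Stag1 were at 0.03 ± 0.11, -0.06 ± 0.10, -0.01 ± 0.14 and 0.01 ± 0.17 by their brightest probe sets. The lower value at an unadjusted p under 0.05 belonged to the dimmest Smc1a probe set, at -0.41 ± 0.15 (adjusted p = 0.356), which the other Smc1a probe sets did not share.

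Between overexpressing and knockdown cells, Stag1 was the 1 member called. It read 738.9, 676.2 and 543.5 in overexpressing arrays A, B and C, against 421.6, 319.5 and 374 in knockdown arrays on its brightest probe set, a difference of 0.78 ± 0.17 (adjusted p = 0.0225). The groups did not overlap. Of all genes 3.57% were called higher, and of all probe sets 3.43%. The other 3 Stag1 probe sets were at 0.59 ± 0.26, 0.64 ± 0.25 and 1.26 ± 0.46 (adjusted p = 0.214, 0.151 and 0.128). The call was lost without overexpressing array A or B, or knockdown array B or C, with adjusted p from 0.0603 to 0.0939, and without the mean-variance trend (adjusted p = 0.0573).

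Top2a was higher in value in all 3 overexpressing than in all 3 knockdown arrays, at 0.52 ± 0.17 (95% interval 0.14 to 0.90), and did not pass (adjusted p = 0.1). Smc2 was at 0.69 ± 0.28 (adjusted p = 0.177) with groups that did not overlap. Smc4 was at 0.17 ± 0.16 (95% interval -0.19 to 0.53) with groups that overlapped, and Ncapg, Ncaph and Ncapd2 were at 0.44 ± 0.20, 0.34 ± 0.17 and 0.44 ± 0.16. With wildtype array A left out of the fit, whose spread all groups share, Smc2 and Top2a passed too (adjusted p = 0.0402 and 0.0277), as they did without wildtype array C (0.0345 and 0.0427). By mean intensity of their brightest probe sets, Top2a, Smc2, Smc4, Ncapg, Ncaph and Ncapd2 had the order overexpressing, knockdown, wildtype, and none of their steps between neighbours in that order passed the test. Dimmer probe sets of Ncapg and Smc4 had other orders: 1429172_a_at of Ncapg averaged 135.3, 170.5 and 146.3 in overexpressing, knockdown and wildtype cells, and 1427276_at of Smc4 averaged 225.1, 141.7 and 145.7.

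DNA replication genes moved with the condensin genes and Top2a on the same arrays, and most cohesin genes did not. The 10 replication markers (Mcm2 to Mcm7, Pcna, Rrm2, Tyms and Tk1) were chosen with earlier results of these data known, and 9 of 10 were called higher in overexpressing over wildtype cells, where 5.04% of all genes were. The exception was Tyms, thymidylate synthase, on a dim probe set with means of 29.07, 19.8 and 44.27 in overexpressing, knockdown and wildtype cells, at -0.41 ± 0.33 (adjusted p = 0.538) in overexpressing and -0.82 ± 0.33 (adjusted p = 0.394) in knockdown over wildtype cells. Their median log2 value relative to the wildtype mean was 1.41, 1.42 and 1.14 in overexpressing arrays A, B and C, 0.78, 0.64 and 0.66 in knockdown arrays and -0.34, -0.06 and 0.41 in wildtype arrays. For the 5 condensin genes it was 0.62, 0.95 and 0.74 in overexpressing arrays, 0.66, 0.58 and 0.30 in knockdown arrays and -0.27, -0.06 and 0.36 in wildtype arrays. For the 4 cohesin genes it was 0.09, 0.10 and 0.12 in overexpressing arrays, -0.02, -0.03 and 0.01 in knockdown arrays and -0.26, 0.12 and 0.15 in wildtype arrays. Each of these sets, the cohesin genes included, thus ranked the wildtype arrays A, B, C from low to high. Top2a did so too, at -0.41, 0.03 and 0.38. The part of the share of cycling cells in the members' values was not tested.

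**Figure D3:**
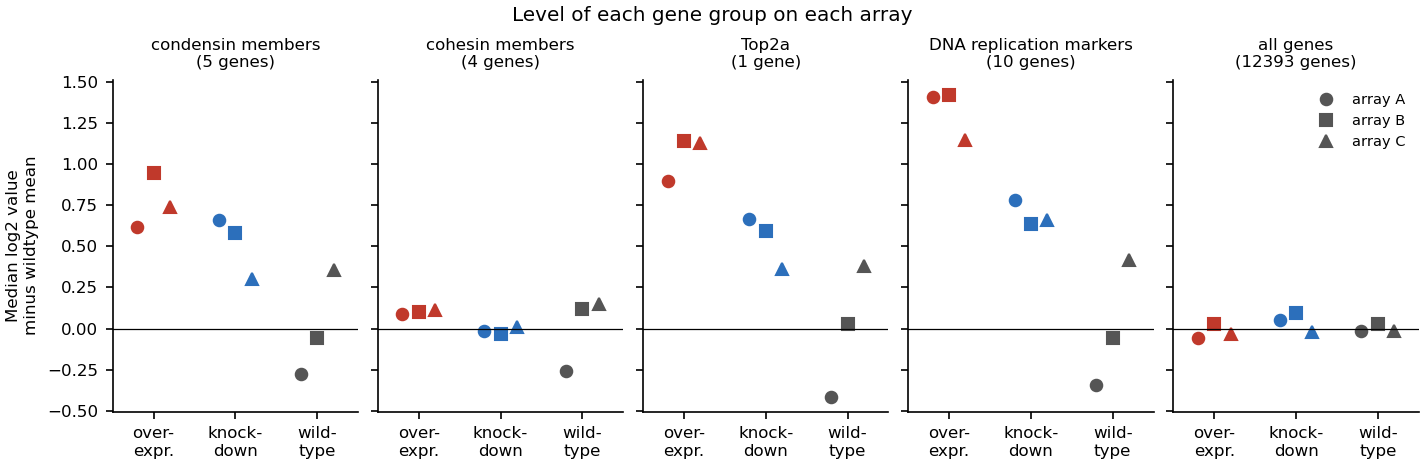
Median over genes of the log2 value minus that gene's wildtype mean (y axis) on each array, for the condensin genes, the cohesin genes, Top2a, the DNA replication markers and all genes, with the groups on the x axis and the array letter as the symbol. The condensin genes, Top2a and the replication markers run from wildtype array A at the bottom to the overexpressing arrays, while all genes stay within 0.1 of 0.

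Likeness over the 9 arrays was described for Top2a, Smc4 and Smc3, with Pearson correlations of log2 values over 10440 brighter probe sets with 1 symbol. These correlations have 9 points that include the differences between groups, and the most similar of so many probe sets will always be high. Nearest to Top2a were Mcm4, a subunit of the replicative helicase, at 0.992, the nucleoporin gene Nup85 at 0.988 and the netrin gene Ntn3 at 0.988. Nearest to Smc4 were the cadherin gene Cdh22 at 0.974, the pantothenate kinase gene Pank3 at 0.969 and Ube2s, a ubiquitin-conjugating enzyme that works with the anaphase promoting complex, at 0.968. Nearest to Smc3 were Nt5c2, a cytosolic nucleotidase gene, at 0.995, the kinase gene Map2k4 at 0.95 and the translation termination factor gene Etf1 at 0.95. Among the members, Top2a correlated at 0.97 with Ncapg, 0.96 with Smc2, 0.95 with Smc4, 0.89 with Ncapd2 and 0.86 with Ncaph. Its correlations with the cohesin genes were 0.79 with Stag1, 0.68 with Smc3, 0.25 with Rad21 and 0.18 with Smc1a.

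Promoter sequence is shown for 5 members because most condensin genes and Top2a passed in overexpressing cells and most cohesin genes did not. The RefSeq table of build GRCm38.p6 gave 1 promoter for 8 of the 10 members. Smc4 and Rad21 were not matched. The letters of 3 kinds of site were looked for on both strands in the 250 bases before the listed start. They were CCAAT, which the factor NF-Y binds, TTTGAA or TTCGAA, the core of the cell cycle homology region (CHR) through which MuvB complexes bind, and TTTCCCGC, TTTGGCGC, TTTCGCGC or TTTGCCGC, which resemble E2F sites. TTCGAA reads the same on both strands and was counted once per position, and no matches overlapped. A match is a description of the letters and not a site. The sequences run 5′ to 3′ on the strand of the gene, from 250 to 10 bases before the listed start, with all matches in capitals. Top2a lies at chr11:99024199-99024439 on the minus strand, and the other 4 on the plus strand, Smc2 at chr4:52438971-52439211, Ncapg at chr5:45669675-45669915, Stag1 at chr9:100643198-100643438 and Smc3 at chr19:53600146-53600386.
Top2a: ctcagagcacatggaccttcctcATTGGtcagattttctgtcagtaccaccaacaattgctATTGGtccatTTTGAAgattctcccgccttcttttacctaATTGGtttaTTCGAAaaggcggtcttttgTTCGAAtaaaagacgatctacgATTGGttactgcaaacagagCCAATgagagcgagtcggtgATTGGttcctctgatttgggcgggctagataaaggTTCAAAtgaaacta
Smc2: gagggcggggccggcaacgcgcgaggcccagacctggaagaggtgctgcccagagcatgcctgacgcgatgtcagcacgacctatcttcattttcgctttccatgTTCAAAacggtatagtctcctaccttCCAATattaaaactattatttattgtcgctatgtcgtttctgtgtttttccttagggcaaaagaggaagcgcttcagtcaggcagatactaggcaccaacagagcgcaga
Ncapg: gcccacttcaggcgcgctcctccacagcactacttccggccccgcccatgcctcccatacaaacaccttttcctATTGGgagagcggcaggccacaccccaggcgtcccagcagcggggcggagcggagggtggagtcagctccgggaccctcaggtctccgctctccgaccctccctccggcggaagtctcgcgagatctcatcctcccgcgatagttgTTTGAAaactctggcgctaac
Stag1: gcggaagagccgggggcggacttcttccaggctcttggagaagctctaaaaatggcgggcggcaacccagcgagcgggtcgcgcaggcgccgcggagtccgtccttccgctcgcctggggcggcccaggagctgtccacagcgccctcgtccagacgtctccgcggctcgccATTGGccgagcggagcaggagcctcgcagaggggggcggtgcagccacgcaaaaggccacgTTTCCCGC
Smc3: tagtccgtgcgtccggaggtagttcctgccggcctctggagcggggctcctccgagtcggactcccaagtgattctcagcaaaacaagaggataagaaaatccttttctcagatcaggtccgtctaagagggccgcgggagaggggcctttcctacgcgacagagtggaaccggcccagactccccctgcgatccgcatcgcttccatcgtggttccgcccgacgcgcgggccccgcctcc

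Top2a held CCAAT 6 times and CHR letters 4 times in this window. CCAAT occurred at least 6 times in 19 of 32851 listed promoters. Smc2, Ncapg and Ncapd2 each held both CCAAT and CHR letters, as Top2a did, and 6.02% of all promoters hold both. In Ncapg the TTTGAA match began 30 bases before the start and the CCAAT match 176 bases before it. Of the cohesin genes, Smc1a and Stag1 held CCAAT without CHR letters, and Smc3 held none of the letters. Stag1 held the E2F letters TTTCCCGC 17 bases before its start, and Ncapd2 held TTTGGCGC, where 1.86% of promoters hold any of the 4 forms. Ncaph, which rose, held none of the letters, and Ncapd2, which was not called, held every kind. The letters and the changes thus did not coincide in each gene. CCAAT alone is in 33.8% and CHR letters in 17.1% of all promoters of this length.

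**Figure D4:**
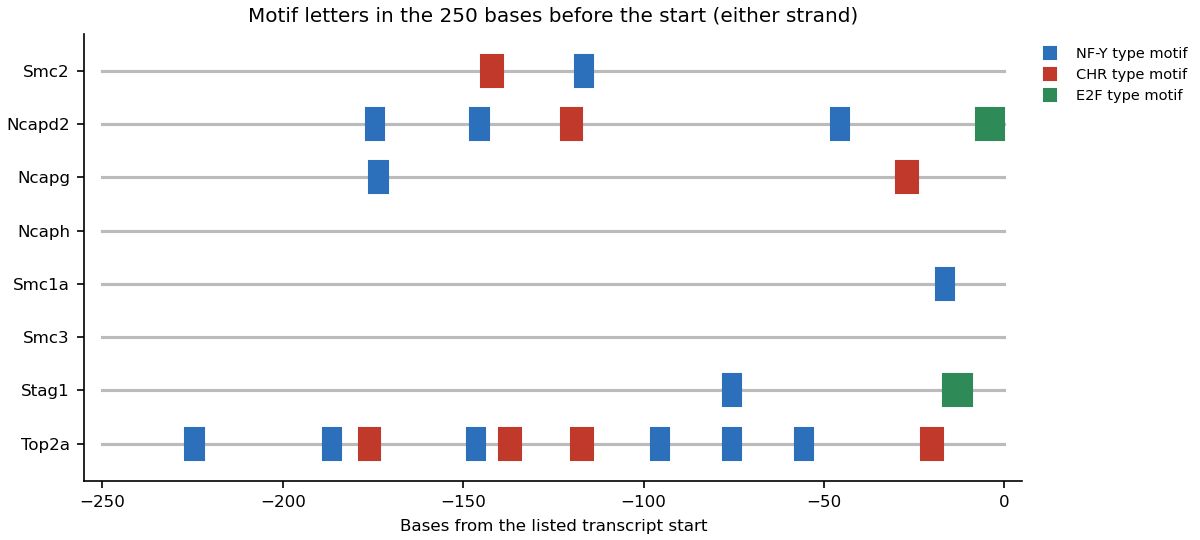
Positions of the motif letters (coloured boxes) in the 250 bases before the listed start (x axis, bases from the start) for the 8 members with a promoter in the table, counted on either strand. Top2a carries 10 boxes, Ncapd2 5, and Ncaph and Smc3 none.

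Other genes of chromosome structure were described from a list of 45, of which 31 had a probe set with 1 symbol. This list too was chosen with earlier results of these data known. It holds loaders, removers and protectors of cohesin, condensin II, related topoisomerases, the chromosomal passenger complex and mitotic kinases. In overexpressing over wildtype cells 15 of the 31 rose and 0 fell by brightest probe sets, with a median of 0.62, where 5.04% of genes were called higher. The 8 with the smallest p-values were Sgo1, Tipin, Cdk1, Set, Incenp, Cdca5, Top1 and Bub1.

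Sgo1, shugoshin, which protects centromeric cohesin until anaphase, rose by 1.80 ± 0.22 (adjusted p = 0.0011). It read 727.5, 715.2 and 590.4 in overexpressing arrays A, B and C, against 125, 232.6 and 208.9 in wildtype arrays. Cdca5, sororin, which keeps cohesin on replicated chromatin, rose by 0.97 ± 0.16 (adjusted p = 0.00467), and Tipin, a replication fork protein, by 1.06 ± 0.13 (adjusted p = 0.00124). The mitotic kinase genes Cdk1 and Bub1 rose by 1.11 ± 0.15 and 1.38 ± 0.24, and Incenp, the scaffold of the chromosomal passenger complex, by 1.21 ± 0.20. Topoisomerase I, encoded by Top1, rose by 0.78 ± 0.13 (adjusted p = 0.00512), and Set, a histone chaperone and inhibitor of protein phosphatase 2A, by 0.62 ± 0.10 (adjusted p = 0.00322). Of the 15 genes, 6 had 8 further probe sets, of which 1 was called higher and the other 7 had the same sign. All 8 genes named here kept their call with each of the 9 arrays left out in turn.

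Relatives and regulators of the members were looked at after the values were seen. Stag2, the paralog of Stag1, was at -0.06 ± 0.13 in overexpressing over wildtype cells (95% interval -0.35 to 0.22), and Top2b, the paralog of Top2a that non-dividing cells express, at 0.15 ± 0.14 (95% interval -0.15 to 0.45) on the brightest of its 3 probe sets. Another Top2b probe set was higher without overlap, at 0.40 ± 0.18 (adjusted p = 0.205), and the third was at 0.45 ± 0.54. The cohesin loader genes Nipbl and Mau2 were at 0.26 ± 0.18 and -0.09 ± 0.23, and Pds5a, a regulator of cohesin release, at 0.52 ± 0.16 (adjusted p = 0.0641). Of condensin II, Ncapg2 was at 0.46 ± 0.27. Ncaph2 was at -0.18 ± 0.12 and -0.19 ± 0.13 on 2 probe sets and at 0.59 ± 0.19 (adjusted p = 0.0792, no overlap) on the remaining one, so its direction is not settled. Of the meiotic relatives, Rec8, the kleisin counterpart of Rad21, was lower without overlap, at -0.33 ± 0.12 (adjusted p = 0.11), and at -0.24 ± 0.12 in knockdown over wildtype cells, also without overlap (adjusted p = 0.498). Smc1b and Stag3 were at -0.14 ± 0.15 and -0.03 ± 0.39 in overexpressing over wildtype cells. Whether these differ from the members was not tested.

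In knockdown over wildtype cells, 0 of the 31 genes passed in limma, where 0.00807% of all genes did, with a median of 0.33, and 13 were higher and 0 lower at an unadjusted p under 0.05, against 6.85% and 4.96% of genes. The smallest p-values belonged to Cdk1 at 0.82 ± 0.15 (adjusted p = 0.0952), Tipin at 0.45 ± 0.13 and Sgo1 at 0.70 ± 0.22. Cdk1 read 2873.3, 2669.7 and 2772.7 in knockdown arrays A, B and C, against 1206.4, 1554 and 2012.4 in wildtype arrays, without overlap. Without wildtype array C, Cdk1 passed at 1.01 (adjusted p = 0.015), as it did with no other single array left out. In that fit 103 of 22626 probe sets passed, against 3 as reported.

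In overexpressing over knockdown cells 5 of the 31 rose and 1 fell, where 3.57% and 5.25% of genes were called higher and lower. Set, Top1, Sgo1, Ctcf and Tipin rose by 0.57 ± 0.10, 0.73 ± 0.13, 1.10 ± 0.22, 0.69 ± 0.15 and 0.62 ± 0.13. Dimmer probe sets of Set (adjusted p = 0.0674 and 0.381) and Ctcf (adjusted p = 0.0575) had the same sign and did not pass. The calls of Sgo1, Ctcf and Tipin were each lost without overexpressing array A or B or knockdown array B, that of Ctcf also without knockdown array C and that of Tipin without knockdown array A, with adjusted p from 0.0542 to 0.0883. Ctcf, the zinc finger protein that stops cohesin loops, read 587.7, 553.2 and 472.9 in overexpressing arrays, against 389.2, 312.7 and 286.6 in knockdown arrays. Ncaph2, the kleisin of condensin II, fell by 0.51 ± 0.12 (adjusted p = 0.0317) on its brightest probe set, with 1670.2, 1828 and 1954.7 in overexpressing arrays, against 2841.7, 2544.2 and 2392.6 in knockdown arrays. Its other probe sets disagreed in sign, at -0.45 ± 0.13 (adjusted p = 0.0645) and 0.43 ± 0.19 (adjusted p = 0.21). Leaving out any 1 of the 6 arrays compared ended the call, with adjusted p from 0.0506 to 0.117.

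**Figure D5:**
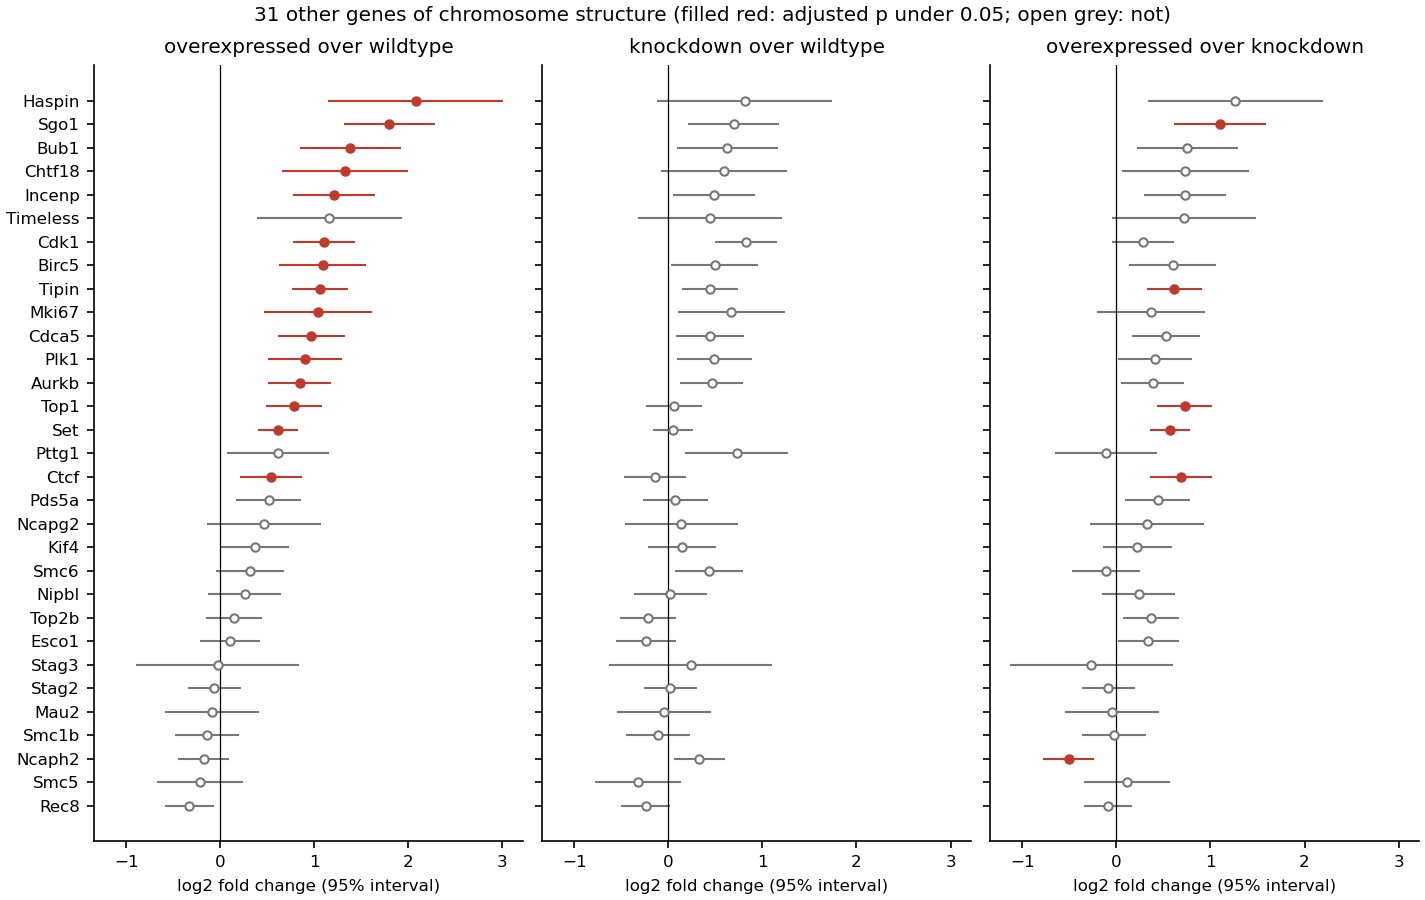
Log2 fold change (x axis) with its 95% interval for the brightest probe set of 31 other genes of chromosome structure in the 3 comparisons, ordered by overexpressed over wildtype, with filled red points where the adjusted p is under 0.05. There are 15 filled points in the left panel, 0 in the middle and 6 on the right, of which Ncaph2 is the 1 below 0.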

How the data were processed

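Total RNA was measured on 9 arrays, 3 per group. The authors deposited 1 linear intensity per probe set and array, and neither labels nor file headers name the software, the background correction or the scaling. The trimmed mean, without 2% at each end, was 500.18 to 500.2 on every array, so the deposited values had been scaled. Gene symbols came from the platform annotation: of 22626 non-control probe sets, 20380 had 1 symbol, 691 several and 1555 none, and 20351 matched RefSeq by gene ID. The deposited intensities were turned into log2(intensity + 16) and fitted over all 3 groups with limma 3.58.1 in R 4.3.3 (lmFit, eBayes with a mean-variance trend), with Benjamini-Hochberg adjustment over all probe sets. A gene with several probe sets was represented by the brightest over all arrays, except Tcof1, whose values per array are of a dimmer probe set. The fit was tested on simulated data. The members and all gene lists were chosen with earlier results of these data known. Outside the members, genes were named by smallest p-value within the chromosome structure list, 8 for overexpressed over wildtype and 3 for knockdown over wildtype, with exceptions stated where they stand. The alternatives were other pseudocounts, a brightness filter, quantile and median scaling, no trend, array weights, a replicate block, a further fold limit, gene means, fewer probe set types and each array left out. The number of arrays limits the precision.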

Additional observations from a re-analysis of the deposited data

How the results depend on the processing

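No result tested turned its direction while called, and the median over the 10 members moved by less than the spread between arrays in all alternatives. For knockdown over wildtype that limit cannot show stability, because the reported median of 0.20 is no larger than the spread. The wildtype arrays themselves had medians of -0.28, 0.01 and 0.27 over the members. Dropping wildtype array A took the knockdown median to 0.10, and dropping wildtype array C took it to 0.36. In overexpressed over wildtype, 8 member probe sets were called as reported, 4 without the mean-variance trend, and 2 to 9 with 1 array left out, and for member genes that range was 2 to 7 around 6. For the other chromosome structure genes it was 11 to 17 around 15. Over all probe sets 2169 were called as reported, 1339 without the trend, and 1090 to 2404 with 1 array left out. In overexpressed over knockdown, the 1 member probe set and gene called became 0 without the trend, and 0 to 3 with 1 array left out. There the other chromosome structure genes called ranged from 2 to 9 around 6. Over all probe sets 1713 were called in that comparison as reported, 834 without the trend, and 704 to 2048 with 1 array left out. In knockdown over wildtype, 1 of those genes was called when the dimmest 40% of probe sets were removed, and 0 to 1 with 1 array left out, against 0 as reported. Over all probe sets those calls were 46 of 13575 and 0 to 103 of 22626, against 3 as reported. Array letters were not taken to pair the samples, since not every same-letter correlation was over 0.1: deviations correlated at -0.012 to 0.102 over 9 pairs, and 1 was over 0.1. Of the 6 arrays in each comparison, 5, 4 and 4 correlated best with their own letter, which is a hint of pairing from the data and not from the labels, in overexpressed and wildtype, knockdown and wildtype, and overexpressed and knockdown. With the letters as a replicate block, 6 member probe sets were called in overexpressed over wildtype, 0 in knockdown over wildtype and 1 in overexpressed over knockdown. There 1 probe set each of Smc4 and Ncaph lost its call in overexpressed over wildtype (adjusted p = 0.0798 and 0.0679). The cause of these changes was not tested. The second Top2a probe set lay under the 16 units added before the log, and 3 arrays a group limit what can be called.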
